A study of Homo sapiens with 6 samples.

Results

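The genes described here are the 43 members of the ATF4 amino acid response and the cytosolic tRNA synthetases, read out by RNA-seq in HCT116 cells with and without METTL3. Members were found by matching their symbols to the first column of the deposited count tables, and all 43 were found among 56638 symbols. All 43 also passed the filter on low counts, which left 22452 genes for testing. They fall into 16 regulators and enzymes, 7 amino acid transporters and 20 synthetases.

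HCT116 is a human colorectal carcinoma cell line, and METTL3 is the catalytic subunit of the complex that writes m6A onto mRNA. The WT group held 3 samples of HCT116 cells labelled wild type. The METTL3-KO group held 3 samples labelled as HCT116 cells in which METTL3 was knocked out with CRISPR/Cas9. Their data were deposited under the name SiM3 and those of WT under NC, names that do not mention a knockout. The groups here follow the labels. In the paper, the editing was delivered by lentivirus with puromycin selection, and the cells were grown out as a monoclonal line. No such steps are named for the WT cells. The loss of METTL3, the vector and selection, and the choice of that clone therefore cannot be told apart. Both groups were grown in McCoy's 5a medium with fetal bovine serum, and the labels name no amino acid withdrawal or other stress. The labels do not say whether replicates came from separate cultures, so the p-values below measure only the spread between these samples, which may be technical.

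When an amino acid runs short, uncharged tRNA activates the kinase GCN2, encoded by EIF2AK4, which phosphorylates the initiation factor eIF2. Translation then slows in general while that of ATF4 mRNA increases, and ATF4 protein, paired with a C/EBP partner, binds composite C/EBP-ATF elements in genes for amino acid synthesis, uptake and tRNA charging. Because ATF4 is controlled to a large degree in its translation and protein stability, its mRNA level is a poor stand-in for its activity. Persistent activity of the same route raises the stress factors DDIT3 (CHOP), TRIB3 and CHAC1.

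Gene counts ran from 20936091 to 30142144 per sample. METTL3 had 841, 682 and 623 counts in WT samples and 219, 169 and 162 in METTL3-KO samples, with a log2 fold change of -2.04 ± 0.0892 (SE) between them. Of the epithelial markers fixed for this line, the summed level was 5165 to 6333 CPM (counts scaled to the library total) in WT and 7048 to 7817 CPM in METTL3-KO. KRT8 held most of that sum, at 3478 to 5655 CPM over the samples, and CDX2 had only 5.49 to 8.85 CPM. The 8 markers of other cell types summed to 4.78 to 7.99 CPM, with 2 of them, PECAM1 and COL3A1, at 0. Nearly all of this second sum was the fibroblast marker COL1A1, at 4.69 to 7.87 CPM. The part of either marker list in the results below was not tested. The third replicates stood apart from the other samples of their groups. The chi-square statistic per gene was 2.58 between WT 1 and 2 but 23.1 and 23.0 between those and WT 3, and it was 2.34 between METTL3-KO 1 and 2 but 11.2 and 8.32 against METTL3-KO 3. Changes of member calls that turn on these libraries are therefore given beside the results or at the end.

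Among the members that were called, lower expression in METTL3-KO cells was the more frequent direction. Over all 43 members the signs were nearly even, with 23 negative and 20 positive log2 fold changes. By the quasi-likelihood test of edgeR, adjusted after Benjamini and Hochberg and read at an adjusted p under 0.05, 15 of the 43 fell and 3 rose, and 25 did not pass. The background was 26.8% of all tested genes, with 13.4% lower and 13.4% higher. Most members are abundantly expressed, and in the 10378 genes whose mean log2 CPM exceeded 3 the background was 40.7%, with 20.6% lower and 20.1% higher. Against this, the 41.9% of members called in either direction is close to that of abundant genes, while the share lower was 34.9% and the share higher 6.98%. The median log2 fold change was -0.11 over the members, -0.02 over all tested genes and -0.01 over the abundant ones. The libraries of the groups did not overlap for 22 of the 43 members, 18 lower and 4 higher in METTL3-KO. The same held for 20.7% and 20.2% of all tested genes, and for 2806 and 2809 of the 10378 abundant ones.

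**Figure D1:**
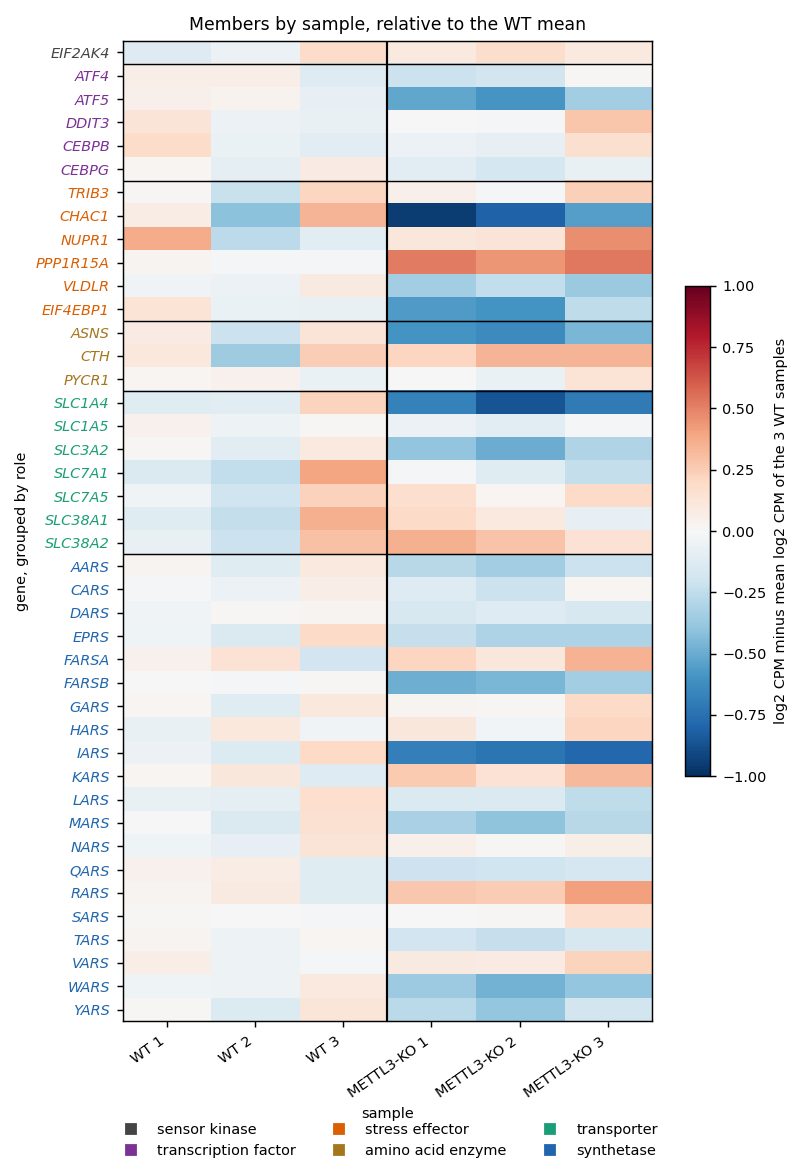
Log2 CPM of each member in each sample minus the mean log2 CPM of the 3 WT samples, with genes in rows by role and samples in columns. CBS, under 1 CPM in most samples, is left out. CHAC1, ASNS, SLC1A4 and IARS are blue in all 3 METTL3-KO samples, PPP1R15A is red in all 3, and WT 3 differs in shade from WT 1 and 2 in many rows.

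Since ATF4 acts on its targets through C/EBP-ATF elements, the promoters of the members were read for the core of that element. The letters searched were TGATGNAA on both strands, in windows from 250 bases before to 50 bases after each start site in RefSeq (GRCh38.p14, a later build than the hg19 of the counts). Windows were found for 36 members, and 15 of these held a match (41.7%), compared with 4.46% of all 27305 genes with a window. Counted by window, the shares were 25.9% of 58 member windows and 3.62% of all 35116. The members were chosen as genes of this response, so a share above that of all genes was built into the choice. A match was present in 8 of 13 members that fell, in 0 of 3 that rose and in 7 of 20 that were not called. These counts are small and the differences between them were not tested. An element outside the windows would be missed, so a window without a match does not show that a gene lacks the element. Among the transporters 5 of 7 held a match, and among the synthetases with a window 7 of 16. The 8 members that fell and held a match are shown first, 5′ to 3′ on the strand of the gene with the matched bases in capitals.
ASNS, chr7:97872458-97872487, minus strand: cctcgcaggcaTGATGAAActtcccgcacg
CHAC1, chr15:40953251-40953280, plus strand: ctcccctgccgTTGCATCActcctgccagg
SLC1A4, chr2:64989381-64989410, plus strand: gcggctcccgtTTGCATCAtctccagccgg
SLC3A2, chr11:62881725-62881748, plus strand: tgcaggactccTTACATCAgctcc
AARS, chr16:70289675-70289704, minus strand: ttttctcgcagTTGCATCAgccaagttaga
IARS, chr9:92293692-92293721, minus strand: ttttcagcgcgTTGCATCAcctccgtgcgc
MARS, chr12:57488053-57488082, plus strand: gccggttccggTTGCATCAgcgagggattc
TARS, chr5:33440956-33440985, plus strand: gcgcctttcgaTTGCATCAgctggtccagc

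The first matched base lay 68 bases before the start site in ASNS, the human gene in which an amino acid response element was classically mapped, at -13 in IARS, -4 in MARS, -7 in SLC1A4 and +3 in TARS. In 6 of these 8 genes the matched bases were TTGCATCA, the reverse complement of TGATGCAA. The same letters or their complement also stood in members whose expression was not called, of which 4 are given for comparison.
CEBPG, chr19:33374060-33374089, plus strand: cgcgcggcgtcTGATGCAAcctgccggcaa
SLC7A1, chr13:29595663-29595692, minus strand: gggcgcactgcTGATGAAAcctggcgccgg
CARS, chr11:3057407-3057436, minus strand: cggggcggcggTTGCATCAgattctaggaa
NARS, chr18:57621804-57621833, minus strand: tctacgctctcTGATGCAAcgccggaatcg
CARS thus carried the same 8 bases as IARS and MARS, with a log2 fold change of -0.11 (adjusted p = 0.350) where IARS had -0.74. These matches describe letters in a window and say nothing of binding in these cells.

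The sensor and the central factor came first in the pathway. EIF2AK4, the kinase that senses uncharged tRNA, had 37.7, 39.5 and 46.9 CPM in WT and 44.2, 46.5 and 44.1 CPM in METTL3-KO. Its groups overlapped, and its log2 fold change of 0.12 (95% interval -0.08 to 0.32) did not pass the test (adjusted p = 0.368). It was called higher with both replicates 3 left out (log2 fold change 0.23, adjusted p = 0.00280) and with WT 3 alone left out (0.22, adjusted p = 0.0264). ATF4 mRNA was measured at 535, 535 and 467 CPM in WT and 441, 449 and 515 CPM in METTL3-KO, that is, 512 ± 39.4 against 468 ± 40.5 (SD, n = 3). WT 3 lay near the METTL3-KO values and METTL3-KO 3 near the WT values, so the groups overlapped. The log2 fold change of ATF4 was -0.13 (95% interval -0.31 to 0.05, adjusted p = 0.289). With both replicates 3 left out it was -0.27 with an adjusted p of 3.95e-07, and after a per-sample correction for length and GC content of transcripts it was -0.12 with an adjusted p of 0.0338. Leaving out WT 3 alone also brought the adjusted p to 0.0326. The call on ATF4 therefore depends on how the third replicates are treated, while its direction does not.

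Of the other transcription factors, ATF5 fell and the others were not called. ATF5, a relative of ATF4 with a similar control of its translation, had 28.9, 28.7 and 26.4 CPM in WT and 19.5, 18.6 and 21.9 CPM in METTL3-KO. All 3 METTL3-KO samples lay below all WT samples (log2 fold change -0.49, SE 0.0905, adjusted p = 0.00221). Exons of IL4I1 and NUP62 on the other strand cover 270 bases (13.5%) of its canonical transcript. DDIT3, the pro-apoptotic factor CHOP, had 15.2, 13.4 and 13.2 CPM in WT and 13.9, 13.8 and 16.8 CPM in METTL3-KO, with METTL3-KO 3 the highest and the groups overlapping. Its log2 fold change was 0.09 (95% interval -0.15 to 0.33, adjusted p = 0.590), so an increase or decrease of a size like that of ATF5 lies outside the interval. DDIT3 overlaps MARS at its end on the opposite strand over 219 bases (24.3% of its exons), where reads shared by both genes were not counted for either or cannot be told apart. The C/EBP partners had log2 fold changes of 0.00 for CEBPB (adjusted p = 0.979) and -0.12 for CEBPG (adjusted p = 0.244).

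**Figure D2:**
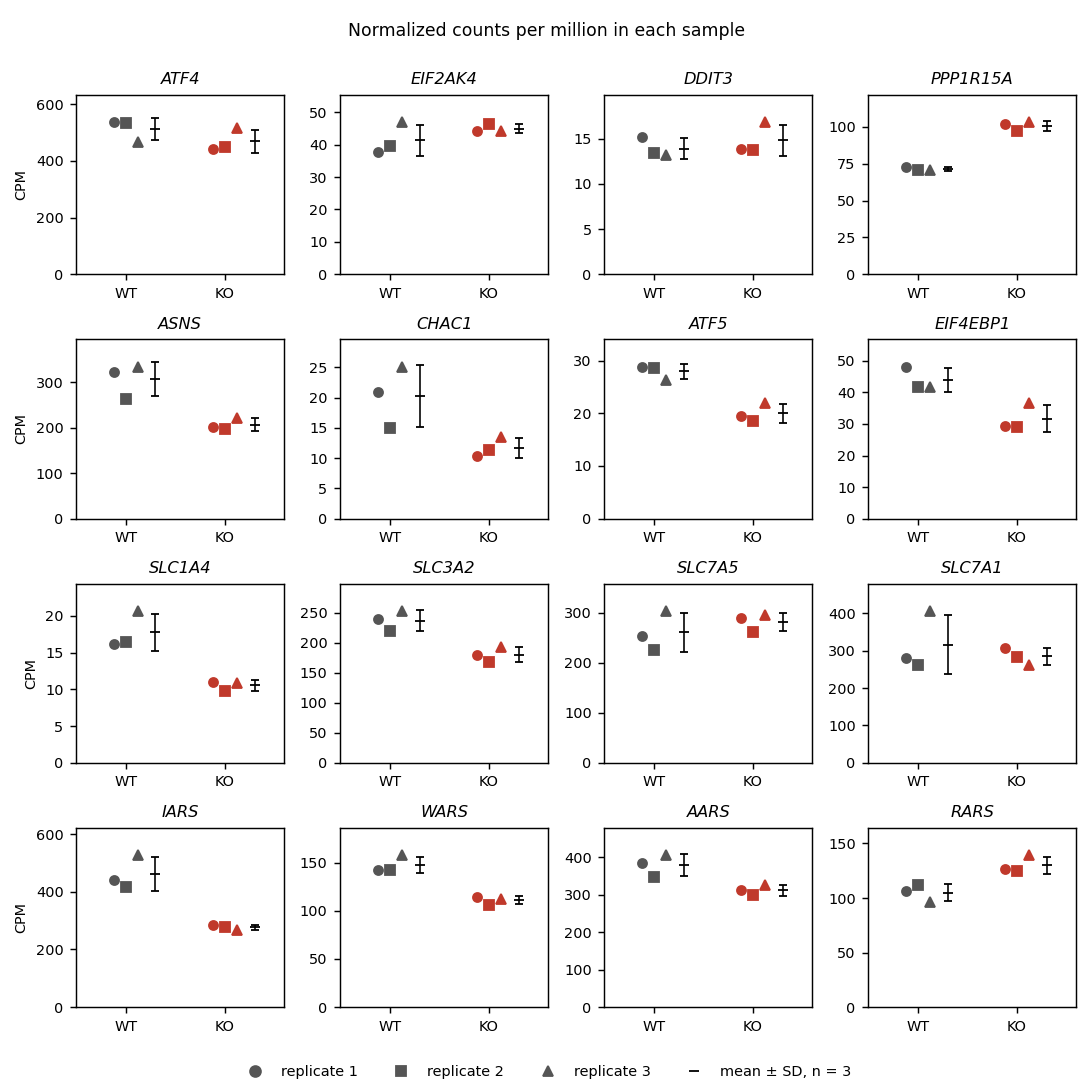
CPM of 16 members in each sample, with WT in grey and METTL3-KO (KO) in red, a marker shape for each replicate number and the mean ± SD of 3 samples beside the points. ATF4, EIF2AK4, DDIT3, SLC7A5 and SLC7A1 overlap between groups, and the other 11 do not; each vertical axis starts at 0 and has its own scale.

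The stress effectors moved in different directions. PPP1R15A, which encodes the inducible subunit of the phosphatase that reverses eIF2 phosphorylation, rose from 72.9, 70.7 and 70.8 CPM in WT to 102, 96.9 and 103 CPM in METTL3-KO. This was a 1.41-fold level with no overlap and the smallest p among the 16 regulators and enzymes (log2 fold change 0.50 ± 0.0676 SE, adjusted p = 0.000305). CHAC1, an enzyme that degrades glutathione, fell from 20.9, 15.0 and 25.1 CPM to 10.3, 11.4 and 13.6 CPM. Its WT samples were widely spread, 20.3 ± 5.11 (SD), but even the lowest was above all METTL3-KO samples (log2 fold change -0.79 ± 0.171 SE, adjusted p = 0.00520). EIF4EBP1, the repressor of cap-dependent initiation that binds eIF4E, fell from 48.2, 41.8 and 41.6 CPM to 29.5, 28.9 and 36.8 CPM. METTL3-KO 3 was the nearest to WT (log2 fold change -0.47 ± 0.106 SE, adjusted p = 0.00690). VLDLR, a lipoprotein receptor that ATF4 can induce, also fell, with a log2 fold change of -0.32 (adjusted p = 0.0223), and it was no longer called without METTL3-KO 1, METTL3-KO 3, WT 1 or WT 2 (adjusted p up to 0.0896). TRIB3, the pseudokinase that binds ATF4 and AKT, had a log2 fold change of 0.08 (adjusted p = 0.609), and the small stress protein NUPR1 one of 0.20 (adjusted p = 0.415).

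Among the enzymes of amino acid synthesis, ASNS changed and the others were not called. ASNS, which makes asparagine from aspartate and glutamine, had 323, 264 and 334 CPM in WT and 201, 196 and 222 CPM in METTL3-KO. The lowest WT sample stood above the highest METTL3-KO sample, and the mean fell by 32.7%, from 307 ± 37.8 to 207 ± 13.6 CPM (SD, n = 3; log2 fold change -0.57 ± 0.0942 SE, adjusted p = 0.00103). The log2 fold change was -0.56 without the third replicates and -0.53 after the length and GC correction. PYCR1, the last step of proline synthesis, had 128 ± 4.95 and 130 ± 9.37 CPM and a log2 fold change of 0.02 (adjusted p = 0.841). CTH and CBS, the enzymes of transsulfuration, which makes cysteine from homocysteine, had log2 fold changes of 0.27 (adjusted p = 0.178) and 0.66 (adjusted p = 0.358). CBS rested on 6 to 22 counts per sample, and its 95% interval ran from -0.42 to 1.75.

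Of the 7 transporters, 2 fell, 0 rose and 5 were not called, with a median log2 fold change of -0.06. The share called, 28.6%, was near the 26.8% of all tested genes and below the 40.7% of abundant ones. SLC1A4, a sodium-dependent carrier of alanine, serine and cysteine, fell from 16.2, 16.5 and 20.7 CPM to 11.05, 9.74 and 10.8 CPM (log2 fold change -0.75 ± 0.116 SE, adjusted p = 0.000673). It was also the least abundant transporter, at 3.90 CPM per kilobase of transcript in WT compared with 195 for the glutamine carrier SLC1A5. SLC3A2, the CD98 heavy chain that brings several light chains to the cell surface, fell from 239, 219 and 253 CPM to 180, 168 and 193 CPM (log2 fold change -0.39 ± 0.0792 SE, adjusted p = 0.00347). For both genes the highest METTL3-KO value was under the lowest WT value, and both calls held in all 14 alternatives.

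SLC7A5, the LAT1 light chain that pairs with SLC3A2 to import leucine and other large neutral amino acids, showed no such decrease. It had 253, 226 and 304 CPM in WT and 290, 262 and 295 CPM in METTL3-KO, and the overlapping groups gave a log2 fold change of 0.12 (95% interval -0.11 to 0.34, adjusted p = 0.441). The difference between the changes of SLC3A2 and SLC7A5 was not tested, although their 95% intervals, -0.57 to -0.22 for SLC3A2, do not meet. SLC7A1, the carrier of arginine and lysine, had 280, 261 and 406 CPM in WT and 308, 284 and 262 CPM in METTL3-KO. WT 3 alone was far above the rest, and the log2 fold change of -0.15 (adjusted p = 0.475) became 0.13 (adjusted p = 0.0155) without the third replicates. SLC38A2, the sodium-coupled carrier SNAT2 that is induced on amino acid shortage, had 180, 163 and 233 CPM in WT and 243, 232 and 210 CPM in METTL3-KO. The test gave a log2 fold change of 0.25 with an SE of 0.118 (adjusted p = 0.144), and of 0.47 without the third replicates (adjusted p = 1.27e-09). SLC38A1, the related carrier SNAT1, gave 0.05 (adjusted p = 0.818) and, without the third replicates, 0.32 (adjusted p = 3.84e-07). SLC1A5 had 563 ± 17.7 and 541 ± 17.2 CPM (SD) and a log2 fold change of -0.06 (adjusted p = 0.542). With the third replicates left out, 4 transporters were thus called higher (SLC7A1, SLC7A5, SLC38A1 and SLC38A2) and the same 2 lower. Most abundant genes were also called in that setting (66.8%, with 31.7% higher and 35.1% lower).

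**Figure D3:**
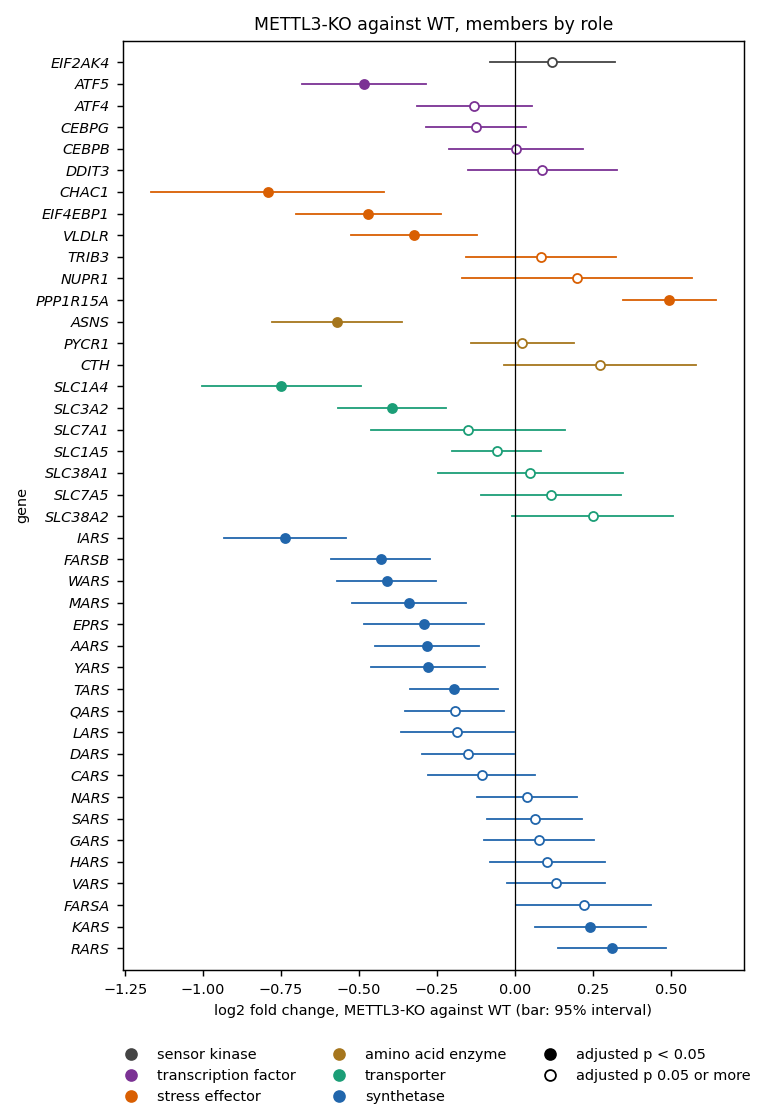
Log2 fold change of METTL3-KO against WT for 42 members (CBS is left out for its wide interval), with bars for the 95% interval, colours for role and filled circles for an adjusted p under 0.05. CHAC1, SLC1A4 and IARS lie lowest at -0.79, -0.75 and -0.74, and PPP1R15A lies highest at 0.50.

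The cytosolic synthetases, each of which joins an amino acid to its tRNA, held 10 calls: 8 of 20 fell, 2 rose and 10 were not called, with a median log2 fold change of -0.17. The 40% lower and 10% higher stand beside 20.6% and 20.1% of abundant genes. Without METTL3-KO 2 only 3 synthetases (15%) were called lower, near the 13.9% of abundant genes in that setting. In WT their levels spanned 9.23 CPM per kilobase for FARSB to 175 for SARS, and the members that fell were spread over this range. IARS, the isoleucyl-tRNA synthetase, had 440, 417 and 527 CPM in WT and 286, 277 and 267 CPM in METTL3-KO. Its mean fell by 40.0%, from 461 ± 57.8 to 277 ± 9.61 CPM (SD, n = 3), or by 0.74 on the log2 scale with an SE of 0.0890 (adjusted p = 0.000139). Per kilobase of transcript, its level was 103 CPM in WT and 61.7 CPM in METTL3-KO. FARSB, a subunit of the phenylalanyl-tRNA synthetase, had 62.5, 61.6 and 63.0 CPM in WT and 44.5, 45.4 and 49.0 CPM in METTL3-KO (log2 fold change -0.43 ± 0.0724 SE, adjusted p = 0.00114). FARSA, which encodes the other subunit, had 53.6 ± 6.33 and 62.5 ± 5.24 CPM (SD) and a log2 fold change of 0.22 (95% interval 0.00 to 0.44, adjusted p = 0.125). The difference between the 2 subunits' changes was not tested.

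WARS, the tryptophanyl enzyme, which interferon also induces, fell from 143, 142 and 158 CPM to 114, 106 and 113 CPM (log2 fold change -0.41 ± 0.0725 SE, adjusted p = 0.00157). MARS, the methionyl enzyme, fell from 273, 247 and 304 CPM to 218, 207 and 226 CPM (log2 fold change -0.34 ± 0.0834 SE, adjusted p = 0.0111). AARS, the alanyl enzyme, fell from 385, 348 and 405 CPM to 312, 298 and 327 CPM (log2 fold change -0.28 ± 0.0761 SE, adjusted p = 0.0178). In these 3 genes the highest METTL3-KO sample stayed below the lowest WT sample, and WT 2 was the lowest WT sample. Smaller decreases passed for EPRS (log2 fold change -0.29, adjusted p = 0.0293), YARS (-0.28, adjusted p = 0.0282) and TARS (-0.20, adjusted p = 0.0428), which charge glutamate and proline, tyrosine and threonine. Some of these calls turned on single libraries. AARS and YARS were no longer called without METTL3-KO 1, METTL3-KO 2 or WT 1 (adjusted p up to 0.0984 and 0.138), EPRS also not without METTL3-KO 3 (up to 0.112), and TARS not without any sample other than WT 3 (up to 0.176). MARS was not called without METTL3-KO 2 (adjusted p = 0.0664). TARSL2, a gene of similar sequence, had 385 to 775 counts per sample, and reads common to TARS and TARSL2 were not counted.

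RARS and KARS went the other way. RARS, the arginyl enzyme, rose from 106, 112 and 96.5 CPM to 126, 125 and 139 CPM (log2 fold change 0.31 ± 0.0793 SE, adjusted p = 0.0132). KARS, the lysyl enzyme, rose from 191 ± 16.3 to 226 ± 13.9 CPM (SD), with a log2 fold change of 0.24 (adjusted p = 0.0473). KARS was not called without METTL3-KO 1, METTL3-KO 2, METTL3-KO 3 or WT 1 (adjusted p up to 0.137), and RARS not without METTL3-KO 3 (adjusted p = 0.0501). For both, WT 3 was the lowest and METTL3-KO 3 the highest sample, and the log2 fold changes without these libraries were 0.20 for RARS (adjusted p = 0.000444) and 0.14 for KARS (adjusted p = 0.00960). RARS and KARS charge the basic amino acids arginine and lysine, the cargo of SLC7A1.

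The 10 synthetases that were not called had log2 fold changes from -0.19 for QARS (adjusted p = 0.0692) to 0.22 for FARSA. DARS (-0.15), LARS (-0.18) and QARS did not overlap between groups in the lower direction, and VARS (0.13) did not in the higher. GARS, HARS, NARS and SARS lay between 0.04 and 0.10, and SARS, the most abundant per kilobase, had 334 ± 2.79 CPM in WT and 349 ± 23.6 CPM in METTL3-KO.

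Grouped by the list of synthetases described as targets of the amino acid response, 7 of 13 fell and 0 rose, with a median log2 fold change of -0.20. Of the 7 synthetases outside that list, 1 fell (FARSB) and 2 rose (RARS and KARS), with a median of 0.10. The enzymes of the multisynthetase complex, a large cytosolic assembly, held both directions: EPRS, IARS and MARS fell and KARS and RARS rose, with a median of -0.19 over the 8, while 5 of the 12 outside it fell and 0 rose, with a median of -0.03. By catalytic class, 5 of the 10 class I enzymes fell and 1 rose (median -0.24), and 3 of the 10 class II enzymes fell and 1 rose (median 0.05). Of the abundant genes, 20.6% fell and 20.1% rose. These splits are counts over small lists that were chosen with earlier results of these data known, and the differences between them were not tested.

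Most amino acids are charged in mitochondria by a separate, nuclear-encoded synthetase, which gives a comparison within the same cells. Of the 17 mitochondrial synthetases tested, 1 fell and 1 rose, with a median log2 fold change of -0.03. The share called, 11.8%, was below the 26.8% of all tested genes and the 40.7% of abundant ones. NARS2 fell (log2 fold change -0.49, adjusted p = 0.00221), while its cytosolic counterpart NARS had 0.04. LARS2 rose (0.28, adjusted p = 0.0176), while LARS had -0.18 (adjusted p = 0.126). LARS2 was not called without METTL3-KO 1, METTL3-KO 2 or WT 1 (adjusted p up to 0.0720). IARS2 had 0.03 ± 0.0662 (SE) and WARS2 0.03 ± 0.0774 (SE), beside -0.74 for IARS and -0.41 for WARS. In none of the 15 pairs for the same amino acid were both genes called. MARS2 (-0.28, adjusted p = 0.0696) and YARS2 (-0.21, adjusted p = 0.0784) had values near those of MARS and YARS.

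Other genes of the pathway were taken from lists of textbook membership. Of 21 further ATF4 targets, 19 passed the count filter, and 6 fell and 2 rose, with a median log2 fold change of -0.20. STC2 and BCAT1 were under the filter. The share called, 42.1%, was close to the 40.7% of abundant genes, with 31.6% lower and 10.5% higher beside 20.6% and 20.1%. The largest change was that of PSAT1, the aminotransferase of serine synthesis, which fell from 161, 129 and 189 CPM to 59.1, 59.1 and 64.8 CPM (log2 fold change -1.39 ± 0.121 SE, adjusted p = 1.70e-05). PSPH, the last step of serine synthesis, and MTHFD2, a mitochondrial folate enzyme, fell as well (log2 fold changes -0.55 and -0.70). HERPUD1, a gene of endoplasmic reticulum protein degradation that the unfolded protein response also induces, rose from 54.5, 52.2 and 56.1 CPM to 95.4, 89.6 and 99.9 CPM (log2 fold change 0.81 ± 0.0737 SE, adjusted p = 2.22e-05). The remaining calls, named after their values were seen, were the decreases of GDF15, SHMT2 and SLC6A9 and the increase of GRB10.

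In the control of eIF2 itself, 2 of 14 genes fell and 1 rose, with a median log2 fold change of -0.11. The share called, 21.4%, was below the 26.8% of all tested genes and the 40.7% of abundant ones. EIF2B1, a subunit of the exchange factor that recharges eIF2 with GTP and that phosphorylated eIF2 blocks, fell from 58.5, 59.9 and 56.5 CPM to 29.7, 28.8 and 31.9 CPM (log2 fold change -0.95 ± 0.0760 SE, adjusted p = 1.02e-05). EIF2B4, another subunit, had -0.32 (adjusted p = 0.0271), but of the 6 tests that left out a sample it passed only the test without WT 3 (adjusted p up to 0.134 in the others). EIF2AK3, the kinase PERK that responds to endoplasmic reticulum stress, rose from 17.6, 17.6 and 21.4 CPM to 32.7, 33.1 and 31.1 CPM (log2 fold change 0.78 ± 0.0953 SE, adjusted p = 0.000148). EIF2AK4, the kinase for amino acid shortage, had 0.12 with all samples and was called higher only in the settings without WT 3; the difference between the kinases was not tested. Of the 3 scaffold proteins of the multisynthetase complex, AIMP1 rose (0.27, adjusted p = 0.0234) and was not called without METTL3-KO 2, METTL3-KO 3 or WT 1 (adjusted p up to 0.0857).

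The third replicates moved with transcript length among the members too. Of the 42 members over 1 CPM, the 21 with shorter transcripts (827 to 2639 nt) had a median log2 ratio of -0.05 for WT 3 against WT 1 and 2 and of 0.17 for METTL3-KO 3 against METTL3-KO 1 and 2. In the 21 with longer transcripts (2672 to 9213 nt) these medians were 0.19 and 0.05, and WT 3 was the highest WT sample in 17 of them, compared with 8 of the shorter. SLC7A1 and SLC38A1, with the longest transcripts among the transporters, had the highest ratios of the 42 for WT 3, at 0.59 and 0.54. Whether transcript length accounts for these differences was not tested. With both replicates 3 left out, 28 members were called, 19 lower and 9 higher, that is 65.1% of the members, against 44.2% of all genes tested in that setting and 66.8% of the abundant ones (35.1% lower and 31.7% higher). All 18 members called with 6 samples stayed called in the same direction, and the 10 added were EIF2AK4, ATF4, CTH, SLC7A1, SLC7A5, SLC38A1, SLC38A2, CARS, DARS and QARS. Among these, the log2 fold change without the third replicates was 0.35 for CTH (adjusted p = 0.0203), -0.26 for QARS (adjusted p = 2.89e-06), -0.14 for CARS (adjusted p = 0.0115) and -0.13 for DARS (adjusted p = 0.0314). Leaving out WT 3 alone gave 17 members lower and 8 higher, where 27.2% of the abundant genes were lower and 26.4% higher. Leaving out METTL3-KO 3 alone gave 12 lower and 1 higher, where 18.2% and 17.1% of the abundant genes were.

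In all 15 settings run, 10 members were called in the same direction: PPP1R15A higher, and ATF5, CHAC1, EIF4EBP1, ASNS, SLC1A4, SLC3A2, FARSB, IARS and WARS lower. The replicate block alone left the same 10 (23.3% of members, 20.9% lower and 2.33% higher). In that setting 22.3% of the abundant genes were called, 11.1% lower and 11.2% higher. The share of all genes called in every setting was not counted. A lower value in these bulk libraries may stand for fewer cells with the transcript or for less transcript per cell, which cannot be told apart.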

How the data were processed

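Total RNA of 3 WT and 3 METTL3-KO samples was sequenced as paired ends from TruSeq libraries. The authors mapped reads to hg19 with TopHat (2.0.11, with Ensembl GRCh37 transcripts) and ran htseq-count (union mode) to count them by gene. Each deposited table holds unscaled counts, with symbols in rows. Reads that met more than 1 gene were left out by that counting, which lowers the counts of overlapping genes (ambiguous reads came to 11.5% to 12.6% of gene counts, and reads outside genes to 8.40% to 13.1%); the strand setting is not given in the sources used here. The deposited files name the WT samples NC, with other numbers, and the METTL3-KO samples SiM3; groups and numbers follow the labels.

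Genes with at least 5 total counts in either condition were tested with edgeR's quasi-likelihood test (edgeR 4.0.16, R 4.3.3, TMM, two-sided, Benjamini-Hochberg adjustment over 22452 genes), METTL3-KO against WT. CPM uses TMM-scaled library sizes, so values are relative to each library's total, and the SE is the size of the log2 fold change over the square root of F. With at least 20936091 gene counts per sample counting error is largest for CBS, NUPR1 and CTH, and for most other members precision is set by the spread between replicates. The procedures were tested on simulated data.

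Members and lists were chosen with earlier results of these data known. Named genes follow a rule: 7 members fixed by name (ATF4, EIF2AK4, DDIT3, ASNS, SLC7A5, SLC7A1, AARS), the 5, 4 and 6 smallest p among regulators and enzymes, transporters and synthetases, and up to 4 called genes of each further list. Transcript length is that of the canonical GENCODE transcript on GRCh37 (43 members matched, 18 through a newer symbol); promoter windows come from RefSeq. Alternatives were DESeq2 (1.42.0), RLE scaling, other filters, a replicate block, a correction for length and GC content (splines with 5 degrees of freedom), and leaving out samples.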

Additional observations from a re-analysis of the deposited data

How the results depend on the processing

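The third replicates, the replicate block and single libraries set most of the changes, and the cause was not tested. DESeq2, RLE scaling and the filterByExpr filter kept all 18 calls among the members, and no filter beyond 1 count lost that of TARS. With both replicates 3 left out, 9 members were called higher, 4 of them transporters and 3 regulators or enzymes. Other genes of the pathway then came to 18 lower and 11 higher, where 35.1% of the abundant genes were lower and 31.7% higher. The length and GC correction gave 5 members higher, 1 of them a transporter, and 17 lower and 9 higher among the other genes. In that setting 28.4% of the abundant genes were lower and 27.8% higher.

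Same-numbered samples deviated in opposite directions (correlations of -0.59, -0.39 and -0.78 over genes). Deviations within a group are not independent, so WT 3 and METTL3-KO 3, which stood apart, bear on all of these values. The correlations therefore cannot decide whether the replicate numbers pair the samples. With the replicate block, 9 members were lower and 1 higher (20.9% and 2.33%), against 11.1% and 11.2% of the abundant genes in that setting. The same setting gave 3 synthetases lower and 0 higher, and 2 other genes of the pathway higher. With the block and the length and GC correction together, all 18 calls were kept. Leaving out each sample in turn gave 1 to 8 members, 0 to 3 transporters, 0 to 2 synthetases and 1 to 3 regulators and enzymes higher. Those settings also gave 2 to 8 other genes of the pathway higher, and 3 to 9 synthetases and 7 to 14 other genes of the pathway lower. Of the abundant genes they gave 13.9% to 27.2% lower and 14.7% to 26.4% higher.

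Some uncalled members changed sign. With both replicates 3 left out the log2 fold change was -0.054 for DDIT3, -0.14 for CEBPB, -0.067 for PYCR1, -0.00096 for NUPR1, -0.00077 for SARS and 0.13 for SLC7A1. Leaving out each sample in turn, it ran from -0.0070 to 0.16 for DDIT3, from -0.074 to 0.10 for CEBPB, from -0.0092 to 0.20 for TRIB3, from -0.032 to 0.069 for PYCR1, from -0.26 to 0.077 for SLC7A1 and from -0.052 to 0.26 for SLC38A1. Depth limits CBS most among the members, at 6 to 22 counts per sample, and counting error also bears on NUPR1 (130 to 244 counts) and CTH (156 to 308 counts).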
